A study of Homo sapiens with 4 samples.

Results

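The SLC25 family of mitochondrial carriers is described here across 4 poly(A) RNA libraries of HCT-8 cells, an established line from a human colorectal cancer, in a derivative resistant to the drug 5-fluorouracil (5-FU). Members were chosen by symbol alone, as every gene whose symbol begins with SLC25A and a number. This gave 48 genes of 20323 in the files, all of them protein-coding in GENCODE release 29, on 19 chromosomes. The cells carried either a negative control plasmid (control, replicates 1 and 2) or a METTL14 overexpression plasmid (METTL14, replicates 1 and 2). METTL14 binds METTL3, and together they form the methyltransferase that writes the mRNA mark N6-methyladenosine (m6A). Both groups received cycloheximide (CHX) at 100 ug/mL, which stops ribosomes from elongating, so neither group shows the line without the drug. The sources used here do not say whether the resistant derivative is a single clone.

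Mitochondrial carriers sit mostly in the inner mitochondrial membrane, which small charged molecules cannot cross unaided. Each moves a particular set of solutes, usually by swapping a molecule in the matrix for another in the space outside: nucleotides and phosphate for ATP supply, carboxylates and amino acids for metabolism, and cofactors, iron and glutathione. The carriers are encoded in the nucleus, made in the cytosol and inserted into the membrane through the TIM22 complex. Closely related members often share a substrate and differ in the tissue where they predominate.

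Total counts lay between 19206661 and 20161082 per library. METTL14 itself reached 7593 and 8516 counts with its plasmid, from 472 and 598 counts in controls. The control libraries differed more from each other than the METTL14 libraries did (chi-square per degree of freedom 29.48 against 3.32). Levels are given as CPM, read counts scaled to library size with TMM factors. Markers of colorectal epithelium were present: 10 of 11 reached a mean of 1 CPM in the controls and 11 of 11 with METTL14, with KRT8 the most abundant, and their summed level was 11949 and 18270 CPM in the controls and 9179 and 9400 CPM with METTL14. Of 7 leukocyte markers 2 reached 1 CPM in the controls and 3 with METTL14 (summed level 19.6 to 20.5 against 70.2 to 70.5 CPM, led by CD68, with CD3E at 0). Of 7 fibroblast markers 4 and 3 did so (12.7 to 16.1 against 18 to 19.7 CPM), of 6 endothelial markers 0 and 1, with KDR at 0, and of 5 erythroid markers none in either group, with HBB at 0. Transcripts of the mitochondrial genome made up 5.99 and 6.26% of control counts and 9.85 and 10.2% of METTL14 counts. The part of these differences in the results below was not tested, except that leaving the mitochondrial transcripts out of the fit gave the same counts of called carriers. In bulk RNA, fewer cells of a type and less RNA per cell cannot be told apart.

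Most carriers that changed were lower with METTL14. Of the 48 members 39 had enough counts to be tested, and 18 of these were lower, 5 were higher and 16 were not called (quasi-likelihood test in edgeR; p adjusted over 12700 genes by Benjamini-Hochberg, below 0.05). A change was thus called for 59% of tested members and for 55.1% of all tested genes. By direction, 46.2% of members were lower and 12.8% higher, where 28.1% of all tested genes were lower and 27.0% higher. A fall of at least 2-fold was called for 5 of the 39 tested members, among them SLC25A13, SLC25A10, SLC25A6 and SLC25A11. A rise of that size was called for 1 of the 39, SLC25A27. Of all tested genes 8.80% fell and 10.2% rose by as much. The median log2 fold change of the tested members was -0.34, and that of all tested genes was -0.01. That median lies at the edge of a gap between SLC25A33 (-0.34) and SLC25A35 (-0.10), and it was -0.09 over the 41 members that passed the filter with mitochondrial transcripts left out. Groups were separate, without overlap between their libraries, in 31 of 39 members (79.5%), close to the 79.8% of all tested genes. Both METTL14 libraries were below both controls for 20 members (51.3%, against 40.0% of all tested genes) and above both for 11 (28.2%, against 39.8%).

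The 48 members together made up 0.315 and 0.311% of control counts and 0.244 and 0.243% of METTL14 counts. Relatives named without the SLC25A prefix, such as UCP2, are not in this sum. SLC25A3, SLC25A5 and SLC25A6 together held 47.1 and 46.6% of the members' control counts and 40.2 and 41% of their METTL14 counts. When the change had to exceed 1.5-fold, 8 of the 39 tested members were called lower and 2 of the 39 higher. The lower ones included SLC25A13, SLC25A10, SLC25A6, SLC25A11, SLC25A25, SLC25A24 and SLC25A5, and the higher ones were SLC25A27 and SLC25A23. Of all tested genes 10.7% were lower and 11.1% higher by this rule. With either METTL14 library left out, fewer members were called lower, and without either control more were called higher. The calls over all tested genes moved the same way.

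**Figure D1:**
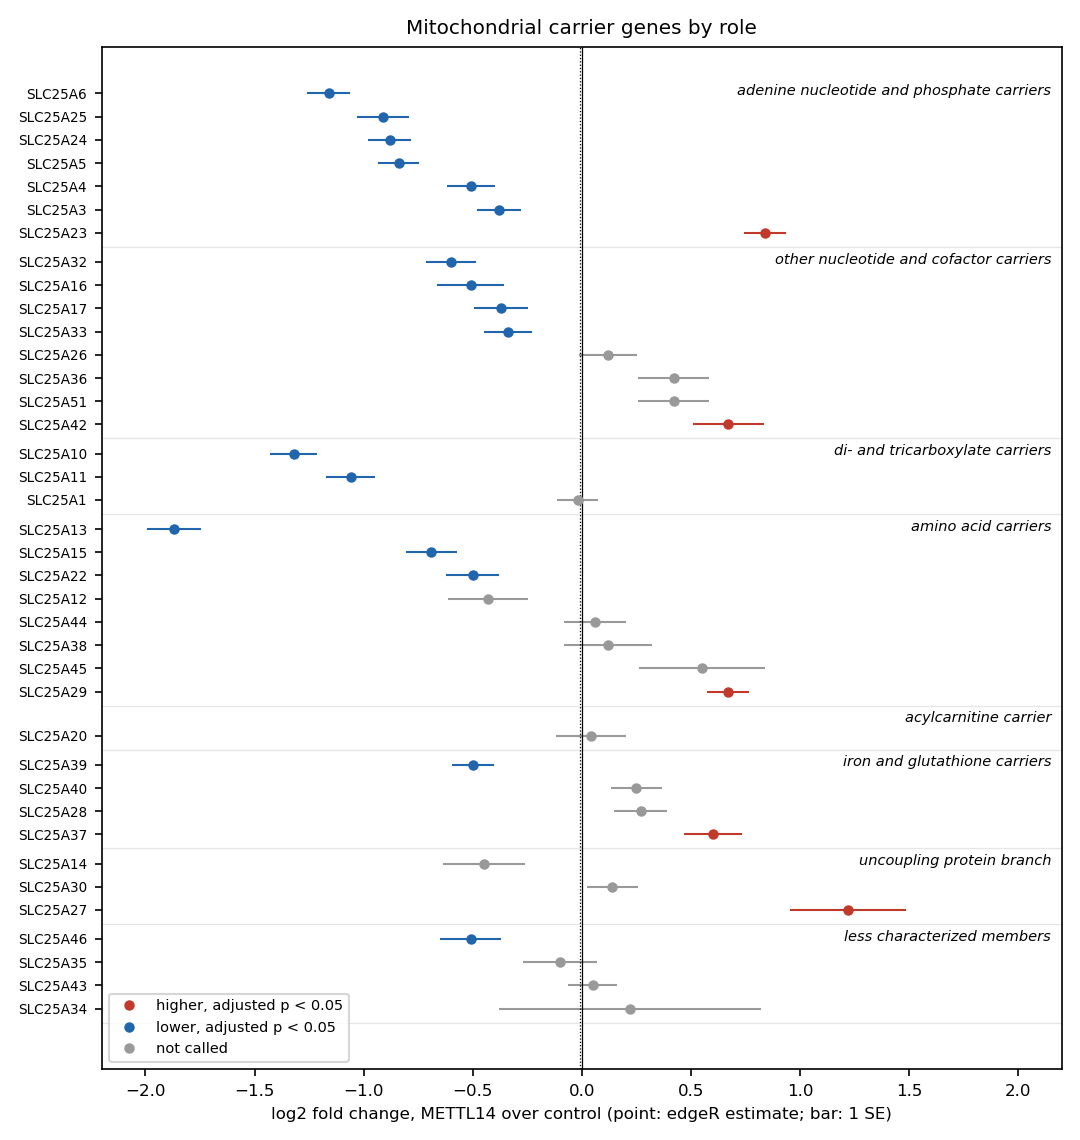
Log2 fold change of 38 of the 39 tested carriers, METTL14 over control, grouped by role; points are edgeR estimates, bars 1 SE, and the dotted line is the median of all tested genes (-0.01). Of the 7 adenine nucleotide and phosphate carriers 6 lie to the left of 0, and SLC25A13 has the lowest value (-1.87).

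The 100 bases before the RefSeq transcription start (GRCh38.p14, 5′ to 3′ on the gene's strand) are printed for 8 called carriers, chosen after their values were seen. They are the phosphate and ADP/ATP carriers SLC25A3, SLC25A5 and SLC25A6, SLC25A13 with the lowest log2 fold change, and the 4 higher members that had a sequence for printing. Capitals mark letters of the 5 motifs searched on both strands: CCAAT (the CCAAT box), CACGTG (an E-box), TGACGTCA (a cyclic AMP response element), CCGGAAG (an ETS core) and the NRF1 motif, none of which contains another.
SLC25A3 (lower, chr12:98593586-98593685, plus strand): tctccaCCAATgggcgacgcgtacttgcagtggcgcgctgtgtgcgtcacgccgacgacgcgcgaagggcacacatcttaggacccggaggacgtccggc
SLC25A5 (lower, chrX:119468344-119468443, plus strand): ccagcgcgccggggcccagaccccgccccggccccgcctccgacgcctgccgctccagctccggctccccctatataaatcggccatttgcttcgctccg
SLC25A6 (lower, chrX:1392114-1392213, minus strand): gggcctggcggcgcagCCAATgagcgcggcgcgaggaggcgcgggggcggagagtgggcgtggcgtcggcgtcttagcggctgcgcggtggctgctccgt
SLC25A13 (lower, chr7:96322099-96322198, minus strand): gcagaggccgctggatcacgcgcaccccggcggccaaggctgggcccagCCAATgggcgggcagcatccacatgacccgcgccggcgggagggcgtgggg
SLC25A23 (higher, chr19:6459793-6459892, minus strand): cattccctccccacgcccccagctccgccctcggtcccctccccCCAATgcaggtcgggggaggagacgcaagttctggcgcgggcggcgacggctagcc
SLC25A27 (higher, chr6:46652875-46652974, plus strand): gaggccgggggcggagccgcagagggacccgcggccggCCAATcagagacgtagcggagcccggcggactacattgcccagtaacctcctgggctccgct
SLC25A29 (higher, chr14:100306445-100306544, minus strand): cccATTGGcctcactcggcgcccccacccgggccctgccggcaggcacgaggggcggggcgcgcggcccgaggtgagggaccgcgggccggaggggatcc
SLC25A42 (higher, chr19:19063894-19063993, plus strand): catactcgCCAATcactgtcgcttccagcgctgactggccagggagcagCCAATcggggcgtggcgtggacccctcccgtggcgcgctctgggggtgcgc

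The 4 higher carriers each hold a CCAAT box in this stretch, and so do SLC25A3, SLC25A6 and SLC25A13 among the lower ones, while SLC25A5 has none of the 5 motifs there. Over the RefSeq window of 300 bases (250 before and 50 after each start), 33 tested members had a sequence. Among all tested genes 10128 had one, and the motif shares of all tested genes given here are over those. CCAAT was in all 4 of the higher members with a window, in 9 of 15 lower members (60%), in 6 of 14 members not called (42.9%) and in 43.1% of all tested genes. CACGTG was in 4 lower members (SLC25A13, SLC25A22, SLC25A33 and SLC25A46), in none of the higher and in 4 not called, 24.2% of the 33 against 12.6% of all tested genes. The ETS core was in 30.3% of the 33 (22.5% of all tested genes), TGACGTCA in 9.09% (3.77%), and the NRF1 motif in none (2.64%). A gene with several listed starts counted as holding a motif if any start did, which applied to 6 tested members.

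Adenine nucleotide and phosphate carriers supply the matrix with ADP and phosphate and export ATP. All 7 tested genes of this role were called, 6 lower and 1 higher. These are 85.7% and 14.3%, against 28.1% lower and 27.0% higher of all tested genes. SLC25A3, the phosphate carrier that feeds ATP synthase (chromosome 12, 98593591 to 98606379), had 788 and 702 CPM in the controls and 571 and 576 CPM with METTL14. Both METTL14 libraries were thus below both controls, by a modest amount (745 ± 60.5 against 573 ± 3.72 CPM; SD, n = 2), a log2 fold change of -0.38 (SE 0.102, edgeR adjusted p = 0.0163). Without either METTL14 library the call was lost.

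The ADP/ATP carriers SLC25A4, SLC25A5 and SLC25A6 exchange cytosolic ADP for matrix ATP. SLC25A5, the form of dividing cells (chromosome X, 119468400 to 119471319), had 590 and 560 CPM in the controls and 318 and 325 CPM with METTL14. The replicates lay close together and the groups far apart, a 1.79-fold difference (log2 fold change -0.84, SE 0.0945, edgeR adjusted p = 0.000417). SLC25A6, in the pseudoautosomal region of X and Y, had 179 and 171 CPM in the controls and 80.8 and 76.2 CPM with METTL14, 2.23-fold lower (log2 fold change -1.16, SE 0.0977, edgeR adjusted p = 0.00017). SLC25A4, the form of heart and muscle, had 51 and 46.3 CPM against 34.1 and 34 CPM (log2 fold change -0.51, SE 0.11, edgeR adjusted p = 0.00627), a call also lost without either METTL14 library. GENCODE lists 9 pseudogenes of SLC25A5 and 6 of SLC25A6, and none is a row of the files, so reads from such copies could be counted with the parent gene. The same holds for other members, among them SLC25A1 and SLC25A15 (5 each), SLC25A51 (3), and SLC25A3, SLC25A24 and SLC25A39 (2 each).

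Calcium-regulated ATP-Mg/phosphate carriers set the size of the matrix adenine nucleotide pool, and they moved apart. SLC25A24 had 118 and 121 CPM in the controls and 67.3 and 62.2 CPM with METTL14 (log2 fold change -0.88, SE 0.0984, edgeR adjusted p = 0.000395). SLC25A25 had 35.8 and 39.3 CPM against 20.7 and 19.3 CPM (log2 fold change -0.91, SE 0.12, edgeR adjusted p = 0.000763). SLC25A23 went the other way, from 90.1 and 85.7 CPM in the controls to 157 and 157 CPM with METTL14 (87.9 ± 3.14 against 157 ± 0.605 CPM; SD, n = 2), a log2 fold change of 0.84 (SE 0.0952, edgeR adjusted p = 0.000436). In each of the 3 genes the groups were separate, and each call held in all 13 alternative analyses.

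Among carriers of other nucleotides and of cofactors, 5 of 9 tested were lower, 1 was higher and 3 were not called. Thus 66.7% were called, against 55.1% of all tested genes. SLC25A32, linked to folate and FAD transport, had 57.6 and 50.4 CPM against 35 and 36.5 CPM (log2 fold change -0.60, SE 0.116, edgeR adjusted p = 0.00413). SLC25A17, a peroxisomal carrier of coenzyme A and related cofactors (-0.37, SE 0.123), and SLC25A16 (-0.51, SE 0.154) were lower too, with calls lost under DESeq2 and without either METTL14 library. SLC25A42, a carrier of coenzyme A, had 9.62 and 8.01 CPM in the controls and 13.5 and 14.6 CPM with METTL14, 59.3% higher (0.67 on the log2 scale, SE 0.163, edgeR adjusted p = 0.0107), and lost its call without METTL14 replicate 2.

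Pyrimidine nucleotides are carried by SLC25A33 and SLC25A36. SLC25A33 had 65.4 and 57.6 CPM in the controls and 48.4 and 48.7 CPM with METTL14 (log2 fold change -0.34, SE 0.11, edgeR adjusted p = 0.0327), a call lost under DESeq2 and without either METTL14 library. SLC25A36 had 42.7 and 60.3 CPM in the controls and 66.3 and 71.6 CPM with METTL14. It did not pass the test (log2 fold change 0.42, SE 0.164, edgeR adjusted p = 0.0624), but passed with DESeq2, without a filter on low counts and without either control. SLC25A51, the NAD carrier, had 7.8 and 9.03 CPM against 11.3 and 11.3 CPM (0.42, SE 0.163, edgeR adjusted p = 0.0611), and passed without control replicate 2. SLC25A26, which brings S-adenosylmethionine into the matrix, had 17.8 and 16.6 CPM against 19.6 and 17.8 CPM, overlapping values (0.12, SE 0.133, edgeR adjusted p = 0.473).

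The dicarboxylate and oxoglutarate carriers were lower, and the citrate carrier was not called. SLC25A10, which exchanges malate and succinate for phosphate (chromosome 17, 81712236 to 81721016), had 92 and 87.4 CPM in the controls and 38 and 34 CPM with METTL14. This is 2.49-fold lower, with the groups well apart (89.7 ± 3.27 against 36 ± 2.81 CPM; SD, n = 2), a log2 fold change of -1.32 (SE 0.108, edgeR adjusted p = 0.000155). A further row of the same symbol, a readthrough with MRPL12, held 44.92 counts in control replicate 1 and 0 elsewhere, and summing both rows gave a log2 ratio of -1.34. SLC25A11, the exchanger of oxoglutarate and malate in the malate-aspartate shuttle, had 125 and 108 CPM against 58.1 and 53.3 CPM (log2 fold change -1.06, SE 0.114, edgeR adjusted p = 0.000348). SLC25A1, which exports citrate for lipid synthesis, had 97.1 and 93.9 CPM in the controls and 95.3 and 92.9 CPM with METTL14. Its values overlapped (log2 fold change -0.02, SE 0.0939, edgeR adjusted p = 0.863), and its sign turned under 3 alternatives, with values up to 0.03.

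Of 8 tested amino acid carriers 3 were lower, 1 was higher and 4 were not called, so 50% were called against 55.1% of all tested genes. SLC25A13, citrin, an exporter of matrix aspartate against glutamate in the malate-aspartate shuttle (chromosome 7, 96120220 to 96322147), had 78.8 and 68.2 CPM in the controls and 20.8 and 19.3 CPM with METTL14. It had the lowest log2 fold change of the 39 tested members, 3.67-fold lower (73.5 ± 7.46 against 20 ± 1.02 CPM; SD, n = 2), a log2 fold change of -1.87 (SE 0.124, edgeR adjusted p = 9.2e-05). Its paralog SLC25A12 had 15.4 and 21.2 CPM in the controls and 14.5 and 12.7 CPM with METTL14, which did not pass the test (-0.43, SE 0.185, edgeR adjusted p = 0.0861). Without control replicate 1, SLC25A12 did pass.

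SLC25A15, the ornithine carrier, had 46.5 and 41.1 CPM in the controls and 27.6 and 26.6 CPM with METTL14 (log2 fold change -0.69, SE 0.118, edgeR adjusted p = 0.00228). The glutamate carrier SLC25A22 had 92.2 and 76.5 CPM against 62 and 57.4 CPM (-0.50, SE 0.121, edgeR adjusted p = 0.0104), a call lost without METTL14 replicate 2. In contrast to these, SLC25A29, a carrier of basic amino acids, had 67.1 and 67.4 CPM in the controls and 111 and 103 CPM with METTL14, with separate groups (0.67, SE 0.097, edgeR adjusted p = 0.00112). SLC25A38, the glycine carrier of heme synthesis, had controls of 47.4 and 30.2 CPM on either side of the METTL14 libraries at 43.7 and 40.7 CPM, and neither it (0.12, SE 0.2), SLC25A44, a carrier of branched-chain amino acids (0.06, SE 0.14), nor SLC25A45 (0.55, SE 0.29) was called. SLC25A38 and SLC25A44 passed without control replicate 1.

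SLC25A39, required for glutathione in the matrix, was lower, and mitoferrin 1, an iron importer, was higher. SLC25A39 had 209 and 198 CPM in the controls and 145 and 143 CPM with METTL14 (log2 fold change -0.50, SE 0.0953, edgeR adjusted p = 0.00386), and lost its call without either METTL14 library. SLC25A40, its close relative, had 28.2 and 32 CPM against 35.6 and 36.2 CPM (0.25, SE 0.118, edgeR adjusted p = 0.107). SLC25A37, mitoferrin 1, had 27 and 32.8 CPM in the controls and 43.7 and 47.2 CPM with METTL14, 51.9% higher (0.60, SE 0.132, edgeR adjusted p = 0.00675). SLC25A28, mitoferrin 2, had 20.1 and 22.1 CPM against 25.9 and 25.1 CPM, separate in the libraries and not called (0.27, SE 0.121, edgeR adjusted p = 0.0908). SLC25A40 and SLC25A28 passed without control replicate 2.

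Of the carriers related in sequence to the uncoupling proteins, SLC25A27 was higher. It had 45 and 68 control counts against 119 and 151 with METTL14, or 2.34 and 3.49 CPM against 6.11 and 7.46 CPM (log2 fold change 1.22, SE 0.266, edgeR adjusted p = 0.00678). The gene is among the weakly expressed members, and its log2 fold change ranged from 0.96 to 1.53 over the alternatives, past the threshold in each. SLC25A30 had 26.2 and 28.5 CPM against 31.1 and 29 CPM (0.14, SE 0.118), and SLC25A14 had 7.44 and 8.62 CPM against 6.01 and 5.73 CPM (-0.45, SE 0.188). Neither was called, and SLC25A14 passed without control replicate 1.

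SLC25A20, which brings acylcarnitines in for fatty acid oxidation, had 18.9 and 14.7 CPM in the controls and 17.3 and 17.2 CPM with METTL14, between the controls (log2 fold change 0.04, SE 0.16, edgeR adjusted p = 0.848). SLC25A46, an outer membrane member tied to mitochondrial shape, was lower, with 26.8 and 29.5 CPM in the controls and 17.9 and 21.7 CPM with METTL14 (-0.51, SE 0.141, edgeR adjusted p = 0.0184), a call lost without METTL14 replicate 1. SLC25A35 (-0.10, SE 0.17), SLC25A43 (0.05, SE 0.112) and SLC25A34 (0.22, SE 0.599) were not called, and SLC25A34 had only 17 and 9 counts against 22 and 9.

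**Figure D2:**
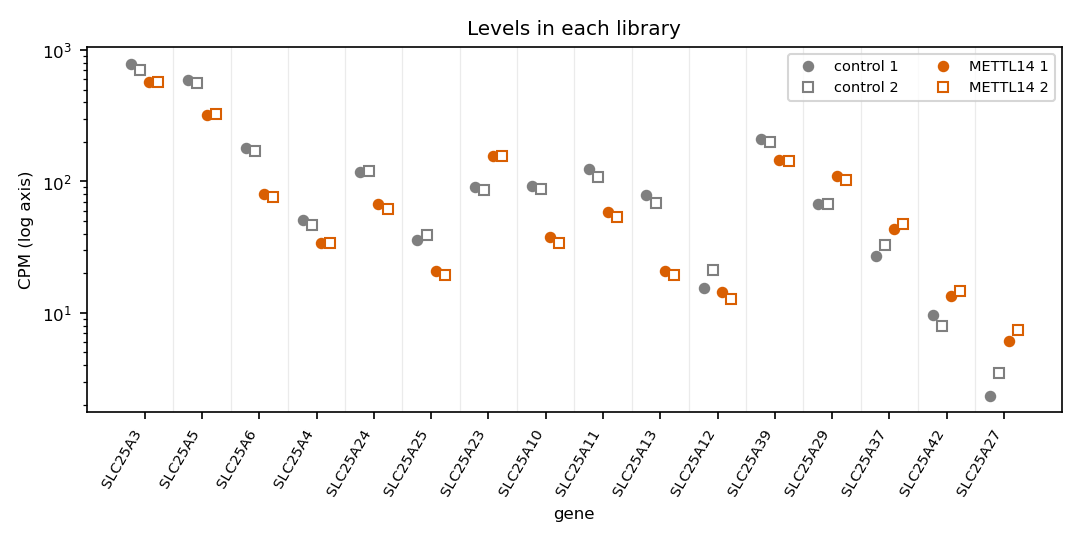
CPM (log axis) of 16 carriers in each of the 4 libraries; grey symbols are controls, orange symbols METTL14, circles replicate 1 and squares replicate 2. Both METTL14 libraries lie below both controls for the genes from SLC25A3 to SLC25A39 other than SLC25A23, and above both for SLC25A23, SLC25A29, SLC25A37, SLC25A42 and SLC25A27.

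The remaining 9 members had too few counts to be tested. SLC25A31, the ADP/ATP carrier of testis, had no count in any library, where 3 counts, the limit that a count of 0 allows, would be 0.148 to 0.156 CPM (counting error only). SLC25A48 had 3 and 4 control counts against 11 and 10 with METTL14, SLC25A18, the second glutamate carrier, 3 and 13 against 4 and 7, and SLC25A41 10 and 7 against 13 and 10. SLC25A53 had 1 and 4 counts against 0 and 1, and SLC25A47 0 and 1 against 4 and 1. SLC25A52, a close copy of SLC25A51, had 3 counts in METTL14 replicate 2 and 0 elsewhere. SLC25A2, a further ornithine carrier, and SLC25A21, the oxodicarboxylate carrier, had at most 1.21 counts in a library.

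Levels per kilobase allow carriers to be compared with each other, using the median length of each gene's basic coding transcripts in GENCODE. In the controls the highest were SLC25A3 at 548 ± 44.5 and SLC25A5 at 451 ± 16.6 CPM per kilobase (SD, n = 2). SLC25A39 (132 ± 5.38) and SLC25A11 (122 ± 12.6) followed and did not differ beyond their spread, then SLC25A6 (84.9 ± 2.46), SLC25A1 (63.1 ± 1.47) and SLC25A23 (61.7 ± 2.21), the latter pair again within their spread. With METTL14 the order began with SLC25A3 (422 ± 2.73), SLC25A5 (252 ± 3.52), SLC25A23 (110 ± 0.425) and SLC25A39 (93.5 ± 1.09), with SLC25A6 at rank 9 and SLC25A13 moving from rank 17 to 30. The order depends on the length chosen: with the longest coding transcript SLC25A3 had 122 CPM per kilobase in the controls, SLC25A11 61.2, SLC25A23 25.7 and SLC25A36 11.1 (39.6 with the median length), while SLC25A5 kept 451 and SLC25A39 had 127.

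Shares within sets of close relatives changed in composition between the groups. SLC25A23 held 58.4 and 56.2% of the summed CPM per kilobase of the ATP-Mg/phosphate carriers in the controls and 81.1 and 82.2% with METTL14. The sum itself was 108 and 107 against 136 and 134, but whether it rises depends on the length chosen. For SLC25A23 1424 bases were used, where its longest coding transcript has 3425. In mean CPM, without length, SLC25A23 went from 87.9 in controls to 157 with METTL14, SLC25A24 from 120 to 64.8 and SLC25A25 from 37.5 to 20. SLC25A12 held 17.1 and 24.7% of the aspartate/glutamate carriers in the controls and 42.4 and 41% with METTL14, with the sum at 30.3 and 28.9 against 11.5 and 10.4. The log2 ratio of SLC25A12 to SLC25A13 was -2.28 and -1.61 in controls against -0.44 and -0.53 with METTL14, a shift of 1.46 between the group means. Both members had fewer CPM in each METTL14 library than in either control.

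Ratios within the pyrimidine nucleotide, glutathione and mitoferrin sets differed by less. The log2 ratio of SLC25A33 to SLC25A36 was -0.95 and -1.63 in controls against -2.02 and -2.12 with METTL14, and that of SLC25A39 to SLC25A40 was 4.28 and 4.02 against 3.42 and 3.37. For the mitoferrins the ratio of SLC25A28 to SLC25A37 was 1.31 and 1.16 against 0.98 and 0.82. Among the ADP/ATP carriers SLC25A5 held 82.5% in each control and 84.2 and 85.1% with METTL14, SLC25A6 15.4 and 15.6% against 13.2 and 12.3%, and SLC25A4 between 1.95 and 2.58% throughout, although their sum was 561 and 533 in the controls and 297 and 300 CPM per kilobase with METTL14. The choice of transcript length sets these shares and sums but not the shifts of the log2 ratios. The glutamate carriers showed no separation, with SLC25A22 at 99.8 and 98.9% in controls against 99.6 and 99.2% with METTL14. SLC25A51 held 98.9 to 100% of the NAD carriers. None of these differences in share or ratio was tested.

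**Figure D3:**
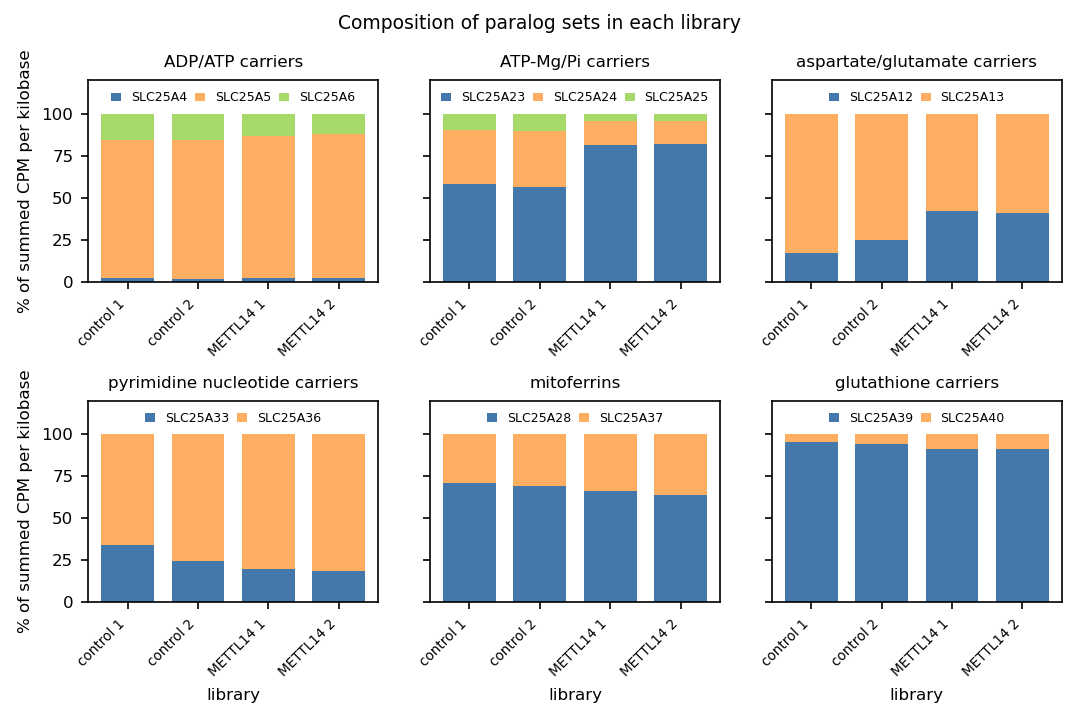
Share (%) of each paralog in the summed CPM per kilobase of its set, as stacked bars for each of the 4 libraries. SLC25A23 takes 56.2 to 58.4% of its set in the controls and 81.1 to 82.2% with METTL14, and SLC25A12 takes 17.1 to 24.7% and 41 to 42.4% of its set.

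Genes that work with the carriers were taken from 9 lists, 128 genes in all. Of 123 tested, 61 were lower (49.6%), 18 higher (14.6%) and 44 not called, with a median log2 fold change of -0.34. Without METTL14 replicate 2, 38 were lower, and without METTL14 replicate 1 or 2, 7 and 10 were higher (28 without control replicate 1). Of all tested genes 55.1% were called, 28.1% as lower and 27.0% as higher. The shares called in either direction were 100% for ATP synthase, 84.6% for carrier import and 77.8% for VDAC and the uniporter. They were 70% for other carriers and their relatives, 63.6% for malate-aspartate and glutamate enzymes and 60% for heme and iron-sulfur genes. Shares below 55.1% were those of the tricarboxylic acid cycle (44.4%), fatty acid oxidation (42.9%) and biogenesis regulators (41.7%). All 16 tested genes of the ATP synthase list, which uses the ADP and phosphate brought in by SLC25A5 and SLC25A3, were lower (median -0.82). With DESeq2 or with library totals 14 were lower, and beyond 1.5-fold 8. Without either METTL14 library not all were called. ATP5MF had 63 and 67.9 CPM in the controls and 27.2 and 30.2 CPM with METTL14 (log2 fold change -1.19, SE 0.115). The list of the import route of carriers held the TOM receptors, the small TIM chaperones and the TIM22 complex. Of its 13 genes 11 were lower and 0 higher (median -0.85), and 6 were lower beyond 1.5-fold. Fewer were lower without either METTL14 library, and a higher call appeared without control replicate 1. There TIMM8B had 32.4 and 35.9 CPM against 13.2 and 14.4 CPM (-1.31, SE 0.128), TIMM10 30.1 and 25.5 against 11.8 and 12.8 CPM (-1.18, SE 0.143) and TOMM22 91.9 and 76.9 against 43.2 and 42.8 CPM (-0.97, SE 0.118).

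Of the tested VDAC and calcium uniporter genes 66.7% were lower and 11.1% higher, against 28.1% and 27.0% of all tested genes. In the list of carriers and their relatives named without the SLC25A prefix, 5 of 10 tested genes were lower (50%) and 2 higher (20%), with a median of -0.41. Fewer were higher without either METTL14 library, and more without control replicate 1. SFXN2, a sideroflexin, had 35.5 and 24.4 CPM in the controls and 4.01 and 3.75 CPM with METTL14 (log2 fold change -2.95, SE 0.221, edgeR adjusted p = 0.000123). MPC2, a subunit of the pyruvate carrier, was lower (-0.79, SE 0.117), and UCP2, an uncoupling protein homologue of the same family, was higher, at 51.4 and 48.6 CPM against 29.8 and 30 CPM (0.74, SE 0.107). The list of outer membrane channels (VDAC) and the calcium uniporter had 6 of 9 lower and 1 higher (median -0.47; 2 lower without METTL14 replicate 2, 0 higher without either METTL14 library), with MICU2, a calcium-sensing regulator of the uniporter, at -1.04 (SE 0.119) and VDAC3 at -0.71 (SE 0.0953).

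Enzymes that supply or use the carried metabolites moved in both directions. Of all tested genes 28.1% were lower and 27.0% higher, and of the tricarboxylic acid cycle and citrate genes 33.3% and 11.1%. In the list of the malate-aspartate shuttle and glutamate enzymes 5 of 11 were higher and 2 lower (median 0.28), and 2 higher and 0 lower without either METTL14 library (5 and 4 lower without control replicate 1 or 2). The lower genes were the shuttle enzymes MDH1 (-0.44, SE 0.103) and GOT2 (-0.50, SE 0.125), and the higher ones included ASNS, asparagine synthetase, at 61.7 and 128 against 280 and 282 CPM (1.57, SE 0.298). Of 18 tricarboxylic acid cycle and citrate genes 6 were lower and 2 higher (median -0.18; 11 lower without control replicate 2, 5 higher without control replicate 1, 1 higher without either METTL14 library), with IDH3A, a subunit of NAD-dependent isocitrate dehydrogenase, at -1.02 (SE 0.0954). Of 14 tested genes of the carnitine shuttle and fatty acid oxidation 4 were higher and 2 lower (median 0.02; 1 and 2 higher without METTL14 replicate 1 or 2, 5 lower without control replicate 2, 1 lower without either METTL14 library), with CRAT, carnitine acetyltransferase, at 0.86 (SE 0.118) and ACADM at -0.70 (SE 0.105).

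Heme and iron-sulfur cluster genes had 9 of 20 lower and 3 higher (median -0.19; 4 lower without either METTL14 library, 5 and 6 higher without control replicate 1 or 2, 1 without METTL14 replicate 1, 5 with library totals or a filter of 5 CPM), with GLRX5 (-0.73, SE 0.105) and ABCB10, a mitochondrial ABC transporter known to bind mitoferrin 1 (-0.66, SE 0.112), lower and ALAS1, the first enzyme of heme synthesis, higher (0.56, SE 0.0944). Regulators of mitochondrial biogenesis had 4 of 12 lower and 1 higher (median -0.44), 9 lower without control replicate 2 and 1 without METTL14 replicate 2, and 2 higher without either control or with library totals. TFAM, which packages and transcribes mitochondrial DNA, had 35.4 and 35.3 CPM in the controls and 16.1 and 18.5 CPM with METTL14 (-1.03, SE 0.124), and MYC was the gene that was higher (1.38, SE 0.118). In the main fit 45% of the heme and iron-sulfur genes were lower and 15% higher. For the biogenesis regulators the shares were 33.3% and 8.33%, and for all tested genes 28.1% and 27.0%.

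**Figure D4:**
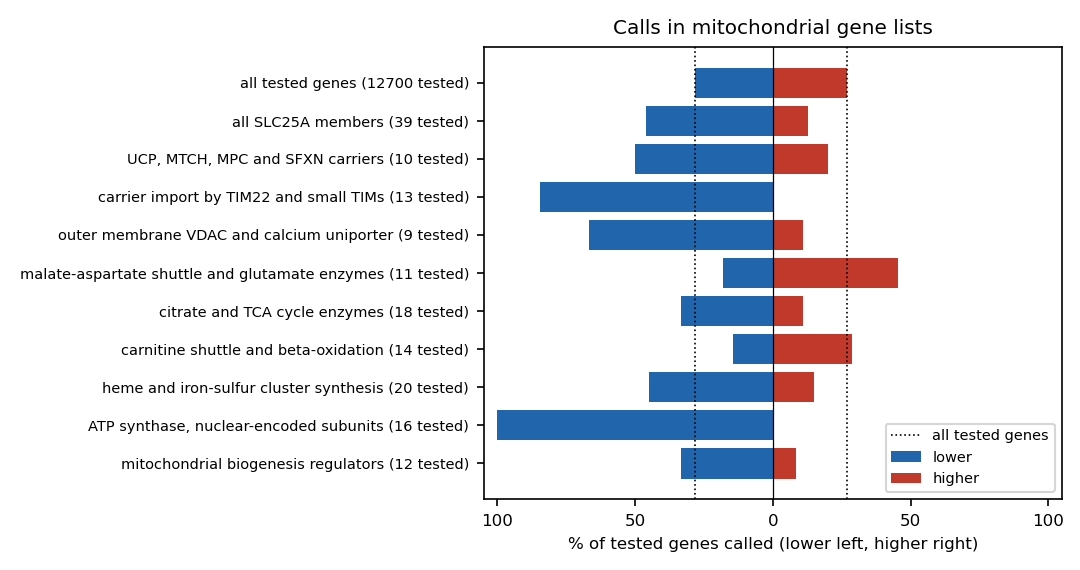
Share (%) of tested genes called lower (left, blue) or higher (right, red) with METTL14 at an edgeR adjusted p below 0.05, for all tested genes, the SLC25A members and 9 lists of partner genes; dotted lines mark all tested genes (28.1% lower, 27.0% higher). The ATP synthase bar reaches 100% lower, and the malate-aspartate list has more genes higher (45.5%) than lower (18.2%).

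Features of the carrier transcripts were read from the coding transcript of median length. Lower members had a median GC content of 48.7% (18 genes) and higher members 60.2% (5 genes), where all lower genes had 47.5% and all higher genes 54%. The letters GGACT, read on the transcript strand as a core of the m6A consensus, were in 17 of 18 lower members, 5 of 5 higher members and 16 of 16 members not called, and in 86.5% of all tested genes. Their median density was 1.43 per kilobase in lower members, 0.792 in higher members and 1.36 in those not called, against 0.988 in all tested genes. Over all tested genes the order of lower and higher was the opposite, 0.904 per kilobase in lower genes and 1.06 in higher genes, with the letters present in 81.6 and 91.5% of them. SLC25A46, which was lower, had none. A match of these letters is no measure of methylation, and the part of GC content or motif density in the results was not tested.

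Some counts are less certain because exons are shared. SLC25A51 overlaps exons of SHB on the same strand. SLC25A11, SLC25A12, SLC25A25, SLC25A26, SLC25A32, SLC25A35 and SLC25A40 overlap exons of RNF167, METAP1D, NAIF1, LRIG1, DCAF13, RANGRF and DBF4, respectively, on the opposite strand, and the sources used here do not state whether counting used the strand.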

How the data were processed

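Poly(A) RNA was sequenced in 4 libraries, 2 per group, with groups and replicate numbers taken from the labels. The submitters' processing notes name fastp, Bowtie2, HISAT2, StringTie, RSEM (no versions) and build hg18. The authors deposited expected counts for each gene, not normalized, and these were rounded to whole numbers. Of 20323 gene identifiers 20171 are in GENCODE release 29 (GRCh38), which leaves the build of the counts unclear. Coordinates, lengths and overlaps are those of GENCODE on GRCh38, and promoters are from RefSeq. Where a symbol had several rows, that with the highest mean count was used. Rows without a symbol (102) held at most 0.037% of counts.

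Counts were tested in edgeR 4.0.16 (R 4.3.3): filterByExpr (minimum count 10), TMM, robust quasi-likelihood test, no covariate, Benjamini-Hochberg adjustment over 12700 genes, threshold 0.05. SE is the absolute log2 fold change over the root of F. Alternatives used DESeq2 1.42.0 and limma-voom 3.58.1, other scalings and filters, replicate number in the model, glmTreat beyond 1.5-fold and each library left out. Leaving out mitochondrial transcripts and using the longest transcript were chosen after seeing the data. The procedure was tested on simulated data, where the share of false calls was above the threshold and most changes of 1.5-fold were missed. Far fewer genes were changed in that simulation than were called here, so these shares need not hold for the present fit. The series describes independent experiments, but no label says that the libraries came from separate cultures. If they did not, p-values measure only a technical spread.

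The members, gene lists and tests were chosen with earlier results of these data known. Named were the members, with values per library at least for members changed at least 2-fold, the highest per kilobase in each role and close paralogs, and up to 4 genes of smallest p per partner list. No protein sequences were used here. Values of 1 tested member and a few other genes are not reported here, but they stay in the counts.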

Additional observations from a re-analysis of the deposited data

How the results depend on the processing

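Each of the 23 called members kept its direction in all 13 alternative fits. The calls of 2 higher members (SLC25A23 and SLC25A27) and of 8 lower ones, among them SLC25A5, SLC25A6, SLC25A10, SLC25A11, SLC25A13, SLC25A24 and SLC25A25, also held in each. Against a change beyond 1.5-fold, the counts were 2 members higher and 8 lower, 4 partner genes higher and 19 lower, and 1416 of all genes higher and 1357 lower. With 1 library left out, the counts ran from 4 to 9 members higher and 11 to 20 lower, 7 to 28 partner genes higher and 38 to 78 lower, and 2307 to 4452 of all genes higher and 2307 to 4575 lower. Without either METTL14 library 11 members were lower, and without control replicate 1 or 2, 8 and 9 members were higher. The lone library was then assumed to vary like the other group. Same-numbered libraries did not deviate together (correlation 0.0443), and the numbers do not pair them by any label. With replicate number as a block, 7 members were higher and 19 lower, 20 partner genes higher and 68 lower, and 3797 of all genes higher and 3903 lower. The block added the calls of SLC25A12, SLC25A36 and SLC25A51, gave 1 higher gene in the import list rather than 0, and gave 5 lower genes in the fatty acid oxidation list rather than 2. All 48 members are protein-coding, so restricting to such genes changed nothing. Signs turned only for members that were not called: SLC25A1 (0.03 with library totals, 0.01 with a filter of 5 CPM, and between -0.05 and 0.03 over all alternatives), and, with 1 library left out, SLC25A20 (-0.13 to 0.24), SLC25A34 (-0.59 to 0.76), SLC25A35 (-0.21 to 0.02), SLC25A38 (-0.17 to 0.48) and SLC25A44 (-0.11 to 0.25). The cause was not tested. Leaving out the normalization factors moved the median of all genes by 0.049. Depth limits the 9 untested members, which had at most 13 counts in a library.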
